A study of Mus musculus with 2 samples.

Results

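The 653 CTCF binding sites described here are the peaks of mouse chromosomes 1 to 19 that lie in the highest 1% of the optimal peak list by signal. They were selected on the authors' signal value, so that value is a description of them and not a result. The optimal list, which the authors thresholded for reproducibility between libraries, holds 65482 peaks, of which 63856 lie on chromosomes 1 to 19. Its highest 1% is 655 peaks: the 653 sites, 1 peak on chromosome X and 1 peak on an unplaced contig. CTCF was mapped by chromatin immunoprecipitation (ChIP) with a CTCF antibody and sequencing in kidney of B6NCrl mice at 0 days after birth. The 2 libraries make up 1 group, numbered as biological replicates 1 and 2. Both carry the same biosample and donor identifier, so any spread between them may be technical. No treatment, genotype difference, second tissue or sex is given, and peak lists cannot check the tissue against marker expression.

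CTCF is a zinc-finger protein that binds a long, asymmetric DNA motif. It blocks the movement of cohesin along chromatin, and motifs that point towards each other are the usual arrangement at the anchors of chromatin loops. It also separates regulatory elements from genes and binds near many promoters, and much of its binding is shared between tissues.

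Signal among the sites ran from 423.36 to 665.17 with a median of 455.02, against a median of 73.16 over all optimal peaks of chromosomes 1 to 19. The last sites inside the limit lay near Hnrnpa3 (signal 423.53), Uvssa (423.52) and Rab12 (423.36). The first peaks outside it lay near Sh3pxd2a (423.35), Ccdc194 (423.22) and Map2k3 (423.13). The limit therefore falls in a continuous range of values and marks no gap. Every share below is given with its 95% Wilson interval and every median with a 95% order-statistic interval. These intervals cover counting error over sites only. Read depth is unknown, since the lists hold no counts.

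Many of the highest sites held a second CTCF motif beside the first. The motif was learned from optimal peaks outside the 653 sites, as a 19-base matrix with the consensus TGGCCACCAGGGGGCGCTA, and a match was a score that 1 in 10000 positions in windows 2 kb away passed. The sequences of high-ranking sites are shown because they carry this pattern. Each is the reference forward strand of GRCm38.p6 (mm10), with the 2 best matches in capitals and 5 further bases at each end.
Pink1, matches on the + and + strands, chr4:138319678-138319738: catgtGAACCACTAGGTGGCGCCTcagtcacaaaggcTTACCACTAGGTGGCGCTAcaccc
Rbm19, - and -, chr5:120102923-120102997: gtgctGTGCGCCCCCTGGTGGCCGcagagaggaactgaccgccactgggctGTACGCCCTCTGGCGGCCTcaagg
Kcnk18, + and +, chr19:59239624-59239696: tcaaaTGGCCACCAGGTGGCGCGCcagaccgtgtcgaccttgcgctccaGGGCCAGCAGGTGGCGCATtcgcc
Lsm11, + and +, chr11:45944955-45945047: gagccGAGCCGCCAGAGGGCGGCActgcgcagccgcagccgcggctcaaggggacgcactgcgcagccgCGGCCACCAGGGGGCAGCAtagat
Fam129b, + and -, chr2:32912588-32912652: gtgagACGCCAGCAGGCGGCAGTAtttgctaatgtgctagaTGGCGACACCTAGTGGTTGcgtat
Gins4, + and -, chr8:23237837-23237906: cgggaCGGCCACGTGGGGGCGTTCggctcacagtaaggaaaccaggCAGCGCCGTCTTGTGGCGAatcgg
Gdf15, - and +, chr8:70629887-70629960: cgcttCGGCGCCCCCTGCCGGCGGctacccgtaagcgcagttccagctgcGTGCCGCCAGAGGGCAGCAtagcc
Epm2aip1, - and +, chr9:111290010-111290089: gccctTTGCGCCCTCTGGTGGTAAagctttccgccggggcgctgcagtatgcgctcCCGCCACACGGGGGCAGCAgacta

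At Pink1 the matches start 32 bp apart and point the same way, at Fam129b they start 36 bp apart and point towards each other, and at Gdf15 they start 45 bp apart and point away from each other. The remaining 4 of the 20 highest sites held 1 match within 100 bp of the summit. Of these, Trpv4, Enah and Glrx3 are shown for contrast, on the strand of the match with 20 bases at each end.
Trpv4, - strand, chr5:114667697-114667755: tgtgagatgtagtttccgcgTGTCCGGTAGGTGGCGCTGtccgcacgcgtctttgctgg
Enah, + strand, chr1:181888933-181888991: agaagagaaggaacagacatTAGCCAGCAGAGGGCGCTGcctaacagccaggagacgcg
Glrx3, + strand, chr7:137478450-137478508: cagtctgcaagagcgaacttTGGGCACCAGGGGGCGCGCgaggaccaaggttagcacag

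Of the 653 sites, 148 held 2 or more matches that do not overlap (22.7%, interval 19.6 to 26.0). Over all optimal peaks of chromosomes 1 to 19 the share was 0.940% (600 of 63856). It was 4.29% among peaks in the 1 to 2% of the list just under the limit, 1.63% in the 2 to 10% after them, 0.737% between 10 and 50%, and 0.476% in the lower 50% of the list. Among 1306 windows centred 2 kb to either side of the sites, none held 2 matches (interval up to 0.293%) and 31 held 1 or more (2.37%). The limit for a match was set in windows placed the same way beside the other peaks, which largely fixes these low counts. The share in the sites depends on the definition of a match. It was 12.9% within 50 bp of the summit, 4.90% with a matrix learned with repeats included and 2.60% at the limit that 1 in 100000 positions pass. Over all optimal peaks the same settings gave 0.484%, 0.166% and 0.0485%.

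Within the 653 sites the share with 2 or more matches fell with rank. Of the 20 highest sites, 16 held at least 2 matches (80%, 58.4 to 91.9). The count was 49 of 79 at ranks 21 to 100 (62.0%), 38 of 100 at ranks 101 to 200 (38.0%) and 9 of 99 at ranks 201 to 300 (9.09%). It was then 18 of 100, 12 of 100 and, at ranks 501 to 655, 6 of 155 (3.87%, 1.79 to 8.19), close to the 4.28% at ranks 656 to 1310. The decline was not even, since ranks 301 to 400 lay above ranks 201 to 300, with overlapping intervals. The share with at least 1 match showed no such slope: it was 20 of 20 for the highest 20 sites and between 89.9% and 93.7% in every later group of ranks within the 653.

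**Figure D1:**
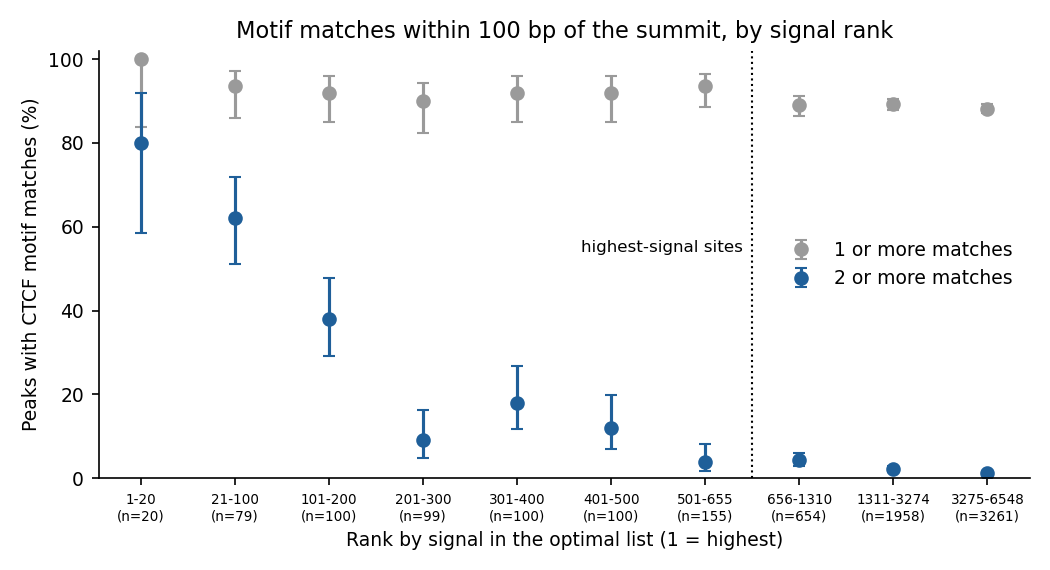
Share of peaks with 1 or more (grey) and 2 or more (blue) CTCF motif matches within 100 bp of the summit, by rank of signal in the optimal list; bars are 95% Wilson intervals and the dotted line marks the end of the highest 1%. The blue points go from 80% at ranks 1 to 20 to 3.87% at ranks 501 to 655, while the grey points stay above 88%.

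The same share was computed in each library's own list, with the same number of highest peaks taken there. It was 20.2% in replicate 1's list and 22.4% in replicate 2's list, beside 0.901% and 0.936% over the upper 65482 peaks of those lists (chromosomes 1 to 19 only). The 148 sites had a median rank of 163 in replicate 1 and 116.5 in replicate 2, and the 456 sites with 1 match had medians of 435.5 and 426. In the first 655 of both library lists stood 114 of the 148 (77.0%, 69.6 to 83.1) and 196 of the 456 (43.0%, 38.5 to 47.6). In the optimal list the 148 and the 456 had median ranks of 116.5 and 386.5. That list was made from the same 2 libraries, so the ranks in the library lists are not separate evidence. GC content within 100 bp was higher among the 653 sites (median 54.2%, 53.7 to 55.2) than over all peaks. The peaks just under the limit had a similar median of 53.2% (52.7 to 53.7). Median GC content was 53.7% (52.2 to 54.7) in sites with 2 or more matches and 54.2% (53.7 to 55.2) in sites with 1. In sites with no match it was 56.7% (54.7 to 60.2). Whether GC content bears on the ranks was not tested.

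The search itself limited the spacing of pairs, since matches had to lie within 100 bp of the summit and could not overlap. Starts could therefore be no closer than the 19 bases of the motif. These limits were the same for the other optimal peaks, so the range alone is no result about the sites. The starts of the 2 best matches lay 58 bp apart at the median (53 to 60), with the middle 50% between 47 and 69 bp and extremes of 19 and 122 bp. In 72 of 148 sites the distance was 41 to 60 bp (48.6%, 40.7 to 56.6). The other 452 optimal peaks with 2 or more matches had a median of 49.5 bp (47 to 53), and 25.4% of them (21.6 to 29.7) lay in that range. These 452 differ from the sites in repeat content as well as in signal. The summit fell on soft-masked (repeat) sequence in 145 of the 452 (32.1%, 27.9 to 36.5) and in 5 of the 148 (3.38%, 1.45 to 7.66). No comparison without repeats was made, here or for direction, summit position and likeness of the matches below.

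Direction was not evenly spread. In 105 of 148 sites both matches lay on the same strand (70.9%, 63.2 to 77.7), in 25 they pointed towards each other and in 18 away from each other. Among the other 452 peaks, 53.8% (49.1 to 58.3) were on the same strand, 35.2% pointed towards each other and 11.1% away.

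**Figure D2:**
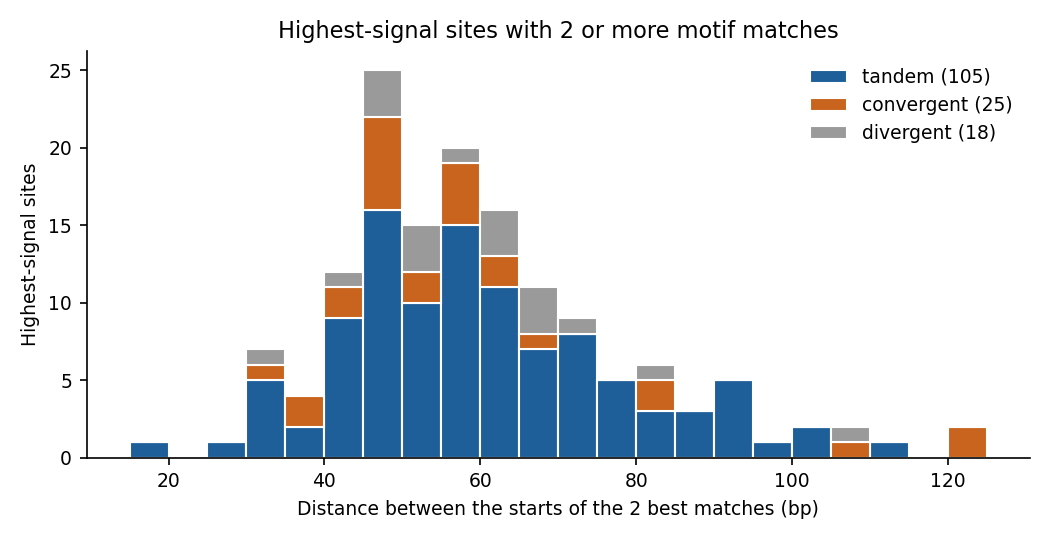
Distance between the starts of the 2 best motif matches (bp) in the 148 highest-signal sites with 2 or more matches, stacked by the direction of the matches. Most sites lie between 41 and 80 bp, and the tandem class (both on 1 strand, 105 sites) is the largest.

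The summit lay between the centres of the 2 matches in 141 of 148 sites (95.3%, 90.6 to 97.7), and the midpoint of the pair was 9.25 bp from the summit at the median. Among the other 452 peaks the summit lay between the centres in 76.1%. Accordingly the best single match was off centre: it lay 26 bp from the summit at the median in sites with 2 or more matches and 6 bp in sites with 1. The called intervals were also wider, with a median of 393 bp (381 to 402) against 328 bp (324 to 333). Width also differed with signal, at a median of 339 bp in all 653 sites and 310 bp just under the limit. Sites with 2 or more matches ranked higher, and widths at like rank were not compared.

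In 7 of the 148 sites the 2 matches were the same 19 bases, as in 23 of the other 452 peaks. The highest of these lay near Fam69b (rank 21), where the matches start 72 bp apart. The others lay near Ctif, Nemp1, Lgr4, Tmem125, Gapt and Grik1; these genes were picked out after their values were seen. At the median 12 of the 19 bases were equal between the 2 matches of a site, against 11 in the other 452 peaks, so most pairs are not exact copies. Only 3 sites held 3 or more matches, near Ctif, Tac4 and Uvrag.

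At least 1 match was present at 604 of the 653 sites (92.5%, 90.2 to 94.3), compared with 59.8% over all optimal peaks. The share was 89.1% just under the limit and 45.2% in the lower 50% of the list. The median score of the matches was 19.57 (19.25 to 19.88), against 17.54 over all matched peaks and 19.71 in the 1 to 2% of the list, so the score did not separate the sites from the peaks next to them in rank. The summit fell on repeat sequence, as the soft-masking of the genome marks it, at 32 sites (4.90%, 3.49 to 6.84), compared with 22.1% of all optimal peaks and 30.2% of the lower 50% of the list. The groups next in rank had similarly low shares, 5.21% at 1 to 2% and 5.92% at 2 to 10% of the list.

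Within the motif, positions 5, 10 and 13, counted from 1 at the 5′ end of the consensus, hardly varied. They held the consensus base in 100% of the 604 best matches, compared with 99.98%, 100% and 99.63% of the other matched peaks. The score limit for a match largely fixes these shares, so their likeness is no result about the sites. No sequence without G at position 10 can pass it, and other bases at positions 5 and 13 cost much of the score. The less fixed positions differed in both directions. Position 7 held its consensus base in 64.2% compared with 40.6%, and position 8 in 53.3% compared with 33.2%, while position 12 held it in 62.7% compared with 68.7% and position 19 in 42.4% compared with 49.8%. A CpG dinucleotide, the target of DNA methylation, began at position 15 in 43.9% of the sites and 28.2% of the other matched peaks. Some CpG lay within the match in 54.8% and 36.0%. Summits on repeat sequence were more common over all optimal peaks than in the sites, as given above. For these positions and for CpG, no comparison without repeats or with the peaks just under the limit was made.

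No site matched the consensus at all 19 bases. The 604 best matches comprised 594 distinct sequences. Among those that recurred, 1 was found at 3 sites, near Fam207a, Dhx35 and Tcp11l1. It is shown because it is the most repeated match, and all 19 letters are the match.
Fam207a (chr10:77509835-77509853, - strand), Dhx35 (chr2:158864022-158864040, - strand) and Tcp11l1 (chr2:104685587-104685605, + strand): TGGCCAGCAGAGGGCAGCA
All 3 copies lay in soft-masked sequence, where only 34 of the 604 best matches lay (5.63%). Each of the other recurring matches was found at 2 sites, such as those near Psrc1 and Zfp618, Stmn1 and Sox13, and Xkr5 and Phlda3.

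The 49 sites without a match included high ranks. The highest lay 19986 bp from the nearest transcription start site (TSS) of a protein-coding gene, that of Hif1an, with signal 599.41 and ranks of 36 and 29 in replicates 1 and 2; it was picked out after its values were seen. Its best score, 13.57, fell just short of the limit of 14.02. Another was the promoter site of Rab2b, a small GTPase gene, with a score of 13.92. By class, 17 of the 49 (34.7%, 22.9 to 48.7) lay within 1 kb of a TSS, against 76 of the 456 sites with 1 match (16.7%).

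By gene position, 324 of the 653 sites were intergenic (49.6%, 45.8 to 53.4), 186 lay in introns (28.5%, 25.2 to 32.1) and 111 lay within 1 kb of a protein-coding TSS (17.0%, 14.3 to 20.1). A further 9 lay in coding exons (1.38%) and 23 in other exons (3.52%). Over all optimal peaks, 41.3% were intergenic, 37.5% intronic and 16.7% within 1 kb of a TSS. The intronic share was lower in the sites and the promoter share was within counting error of that over all peaks. The intronic share rose along the list, from 30.6% just under the limit to 38.8% in the lower 50%, and the promoter share was lowest in the 2 to 10% group (12.9%).

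**Figure D3:**
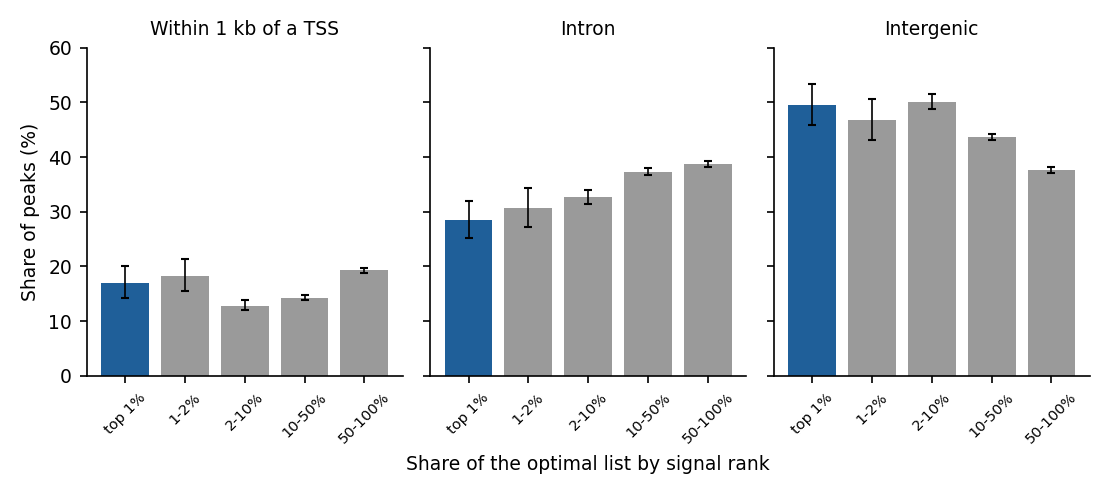
Share of peaks within 1 kb of a TSS, in introns and between genes, for the highest-signal sites (blue, top 1%) and 4 lower groups of the optimal list by rank (grey), with 95% Wilson intervals. The intronic share climbs from 28.5% to 38.8% as rank falls, and the intergenic share is 49.6% in the sites and 37.7% in the lowest group.

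Genes were near most sites. The median distance to a TSS was 10010 bp (8321 to 11538), against 11302 bp over all peaks, and 24 sites lay over 100 kb from any TSS (3.68%, 2.48 to 5.41), against 12%. The median number of protein-coding genes that start within 100 kb was 3, compared with 2 over all peaks. No gene started within 100 kb of 43 sites (6.58%, 4.93 to 8.75), compared with 18.6% of all peaks. Peaks just under the limit lay between these values for both shares (5.67% and 10.7%), with the same median of 3 genes and a median distance of 10028 bp. Intergenic sites lay between genes that point away from each other in 104 of 324 cases (32.1%, 27.3 to 37.4), against 28.1% of all intergenic peaks.

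The highest sites outside promoters stood near genes of varied function. The first 10 by signal were near or in Gdf15, which encodes a stress-induced cytokine (signal 665.17), Trpv4, a cation channel (656.53), Fam129b (647.98), Pink1, a mitochondrial kinase (646.92), Enah, an actin regulator (646.38), Glrx3, a glutaredoxin (635.90), Npvf, a neuropeptide precursor (628.49), Rbm19, an RNA-binding protein (626.88), Ptges2, a prostaglandin E synthase (625.01), and Gtf3c5, a subunit of the RNA polymerase III factor TFIIIC (623.48). The site named for Npvf was far from it, at 282867 bp from its TSS. The next non-promoter sites were near Kcnk18, a potassium channel gene (620.90), Caln1 (620.30, at 404737 bp), Epm2aip1 (612.27), Nckap5l (609.37) and Kctd15 (607.54). In the order of the whole list each of these had ranks of 1 to 75 in replicate 1 and 1 to 24 in replicate 2.

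Promoter sites sat close to the TSS and mostly before it. Of the 111, 83 were upstream of the nearest TSS (74.8%, 66.0 to 81.9), compared with 57.6% of the 10691 promoter peaks in the whole list. Their median distance was 117 bp (86 to 181) compared with 207 bp (199 to 215). A motif match was present at 94 of the 111 (84.7%, 76.8 to 90.2), compared with 34.1% of all promoter peaks, and 2 or more matches at 18 (16.2%, 10.5 to 24.2) compared with 0.664%. The match lay on the strand of the gene in 56 of the 94 (59.6%, 49.5 to 68.9), an interval that includes the 53.9% of all promoter peaks with a match. TSSs on both strands lay within 1 kb of 10 of the 111 (9.01%, 4.97 to 15.8), against 7.20%.

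The 5 highest promoter sites ranked 13 to 20 in the list. They belonged to Gins4, a subunit of the GINS replication complex (212 bp upstream of the TSS, signal 615.37), Polr3gl, an RNA polymerase III subunit (209 bp, 611.14), Acbd4, an acyl-CoA binding protein (162 bp, 605.73), H2-DMa, which loads peptide onto MHC class II (213 bp, 600.23), and Lsm11, a factor in histone mRNA processing (89 bp, 600.04). The next were Med4, a Mediator subunit (82 bp, 589.01), Iqsec1 (914 bp, 585.92), Twf2, an actin-binding twinfilin (72 bp, 584.74), and Top1mt, the mitochondrial topoisomerase (630 bp, 584.07), all upstream. Ccdc110 followed (283 bp downstream, 574.10), then Wrap53 (149 bp upstream, 573.53) and Rab2b (74 bp downstream, 565.97). Of the 12, 7 held 2 matches, 4 held 1 and Rab2b held none.

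Coding sequence held 9 sites. After Gdf15 the highest were those in Zfp219, a zinc-finger gene (rank 131, signal 510.19), in Spi1, which encodes the blood-lineage factor PU.1 (rank 180, 488.20), and in Kif27 (rank 192, 483.01). Next came those in Def6 (rank 196, 480.97) and Pgls, which encodes an enzyme of the pentose phosphate pathway (rank 291, 458.91). All 9 held a match, and in 3 of 9 it lay on the strand of the gene. Of the 172 intronic sites with a match, 77 had it on the gene's strand (44.8%, 37.5 to 52.2).

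Few genes held more than 1 site. The annotation Gm20388, which spans 4434882 bp of chromosome 8 (119910841 to 124345722) across many other genes, held 5 sites among 339 optimal peaks. Col18a1, a basement membrane collagen gene, and Dnah17, Pla2g5, Diaph1 and Gm21969 held 2 each; these were named after their counts were seen. Of 20780 protein-coding genes, 671 (3.23%, 3.0 to 3.48) had a site in the gene or within 10 kb, and 277 (1.33%) had one between their ends.

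Lists of kidney and control genes were short, and their counts were not tested against the 3.23% of all genes with a site. In these lists too, a site counts for a gene if it lies in the gene or within 10 kb, even where another gene is nearer. Of 20 podocyte genes, 3 had a site (15%, 5.24 to 36.0). Foxc2, a transcription factor gene of podocytes and vessels, had its site 2703 bp away (signal 534.16, ranks 322 and 69 in replicates 1 and 2). Kirrel, a slit diaphragm gene (429.97), and Col4a3, a basement membrane collagen gene (427.07), had theirs within the gene. Of 16 endothelial genes, 2 had a site (12.5%, 3.50 to 36.0): Eng, a TGF-beta co-receptor gene (578.50, 6932 bp from the gene), and Sox18 (494.60, 7324 bp).

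Of 18 genes of renal cystic disease, 3 had a site (16.7%, 5.84 to 39.2), and only Anks6 (438.68) had it in the gene. The site of Vhl, a tumour suppressor (451.01), lay 6781 bp from the gene and 53 bp from the TSS of Irak2. That of Nek8, a ciliary kinase (429.98), lay 6833 bp from the gene, in an exon of Traf4. Of 21 genes of CTCF and cohesin, 1 had a site (4.76%, 0.846 to 22.7): Esco1, a cohesin acetyltransferase (433.82). That site lay 7403 bp from Esco1 and 20 bp from the TSS of Snrpd1. Lists with no site were those of nephron progenitors (19 genes), proximal tubule (20), ureteric bud and collecting duct (19), renal stroma (20), immune cells (16), erythroid cells (10), hepatocytes (12), neurons (12), muscle (12), imprinted genes (34), the circadian clock (16), clustered protocadherins (56) and Hox clusters (39). Among ribosomal protein genes 2 of 87 had a site, Rplp0 (441.97) and Rps3a1 (436.71).

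Larger families gave shares on either side of that of all genes. Solute carrier genes had a site in 15 of 358 (4.19%, 2.56 to 6.80), led by Slc25a25 (625.01, a site also counted for Ptges2), Slc17a9 (571.76), Slc4a3 (554.91) and Slc16a8 (531.20). Genes named Zfp had one in 8 of 385 (2.08%, 1.06 to 4.05), led by Zfp219, Zfp239 (504.89), Zfp90 (471.08) and Zfp618 (458.97). Olfactory receptor genes, which lie in large clusters, had one in 2 of 1127 (0.177%, 0.0487 to 0.645). Those 2, Olfr94 and Olfr95, shared a single site (487.49).

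The sites were spread along the chromosomes, mostly far apart. The median distance between neighbouring sites was 1235842 bp (1076367 to 1490318) over 634 gaps, with 139392.5 bp at the 10th and 9445651 bp at the 90th percentile. Taking 1 peak in about 100 makes long gaps by itself: neighbouring optimal peaks were 13931 bp apart at the median, and 61 optimal peaks (54 to 70) lay between neighbouring sites. In 8 gaps no optimal peak lay between.

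**Figure D4:**
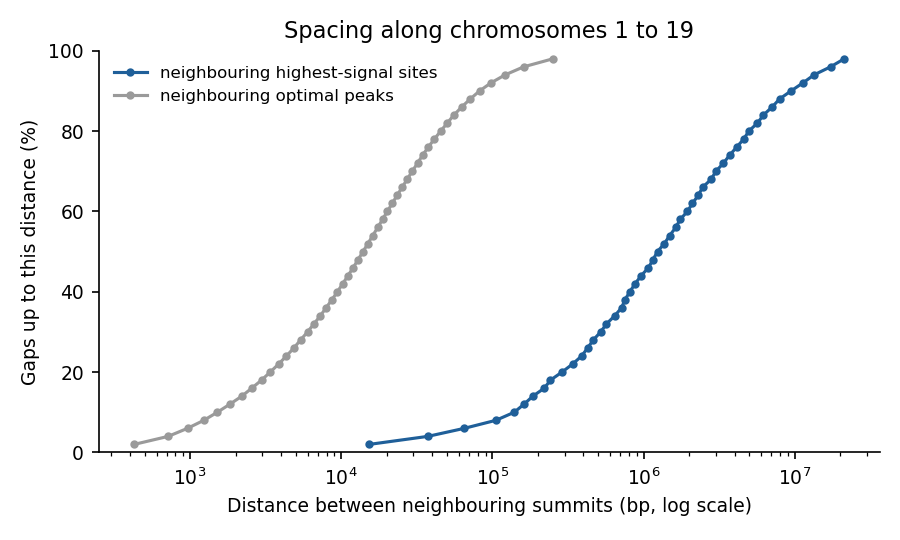
Cumulative share of distances between neighbouring summits on chromosomes 1 to 19, for the highest-signal sites (blue) and all optimal peaks (grey), on a log axis in bp. The medians are 1235842 bp and 13931 bp, and the blue curve rises over a wider range.

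Around each site the density of ordinary peaks was slightly higher than elsewhere. The nearest other optimal peak lay 4763 bp away at the median (4239 to 5394), compared with 6197 bp (6106 to 6286) over all peaks. Peaks just under the limit had 4285 bp. With replicate 2's list alone the distance was 2355.5 bp (1840 to 2969), compared with 4736.5 bp over the upper part of that list. Within 100 kb the sites had 11 other optimal peaks at the median, compared with 9. Only 12 sites had none within 50 kb (1.84%, 1.05 to 3.18), compared with 6.41%. A total of 7 sites had another peak within 500 bp (1.07%, 0.520 to 2.20), compared with 4.79% of all peaks. In these measures the sites resembled the peaks just under the limit, which had 11 other peaks within 100 kb at the median, none within 50 kb in 1.53%, and another within 500 bp in 1.07%. The neighbour itself was ordinary, with a median signal percentile of 52.6 (47.7 to 56.1), and in 10 sites it was another of the 653 (1.53%, 0.834 to 2.80), compared with 1.01% over all peaks.

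Close pairs of sites were few. Another of the 653 lay within 100 kb of 93 sites (14.2%) and within 10 kb of 16. Joined at distances up to 100 kb, 560 sites stood alone, and the rest formed 37 pairs, 5 triples and 1 group of 4. That group covers Cacna2d2, Sema3b and Gnai2 on chromosome 9 (107514776 to 107644769), where 20 optimal peaks lie. The closest pair was in Dnah17, a dynein gene, with summits 1124 bp apart. It was followed by pairs near Cdk18 (1610 bp), Gnl1 (3319 bp), in Pla2g5 (5038 bp), near Fbln2 (5413 bp), at Ppard (6319 bp), near Ccn2 (8104 bp), and between Mthfsd and Foxc2 (9223 bp). The most isolated sites lay near Samd12, with the next optimal peak 208992 bp away, Tcerg1l (131501 bp) and Ddx1 (78632 bp).

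The direction of neighbouring motifs, taken from the best match of each site, varied over the ranges of distance. Between 100 and 500 kb, 41 of 118 neighbouring sites pointed towards each other (34.7%, 26.8 to 43.7) and 18 away (15.3%, 9.87 to 22.8), values close to the 31.4% and 18.0% of neighbouring optimal peaks at the same distance. Between 10 and 100 kb the order was turned, with 6 of 35 towards each other (17.1%, 8.10 to 32.7) and 15 away (42.9%, 28.0 to 59.1), against 24.2% and 24.6% over all peaks. Under 10 kb none of 6 pointed towards each other and 4 pointed away, at Cdk18, Gnl1, Fbln2 and Ccn2. The left site at Ccn2 also held a lower match on the other strand (score 14.40 against 18.12), so its direction depends on the match taken. Beyond 500 kb, where most neighbouring sites lie, 52 of 188 pointed towards each other up to 2 Mb (27.7%, 21.8 to 34.5) and 44 away (23.4%, 17.9 to 30.0), against 35.9% and 16.6% over all peaks. Over 2 Mb the order turned again, with 54 of 238 towards each other (22.7%, 17.8 to 28.4) and 71 away (29.8%, 24.4 to 35.9). All peaks gave 46.2% and 23.1% there, from only 26 pairs. In both ranges where the order turned, the 2 intervals for the sites overlap. From 10 to 500 kb together, 47 of 153 pointed towards each other (30.7%, 24.0 to 38.4), an interval that includes the 25.6% of all peaks. Neighbouring sites usually have other peaks between them, so the pairs are not of the same kind as neighbouring optimal peaks.

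By chromosome, the share of optimal peaks that were among the 653 ran from 0.727% on chromosome 6 (27 of 3714) to 1.40% on chromosome 11 (68 of 4847, 1.11 to 1.77). Chromosome 11 also had the most sites per megabase, 0.557, and the most optimal peaks per megabase, 39.7. Chromosome X, which the selection leaves out, stood apart. It had 1 of its 1614 optimal peaks in the highest 1% (0.0620%, 0.0109 to 0.350), near Zxdb at rank 251. In the highest 10% it had 21 (1.30%, 0.853 to 1.98), against 10.2% on chromosomes 1 to 19, and in the highest 25% it had 13.0%, against 25.3%. In the highest 50% the shares were 52% (49.5 to 54.4) and 49.95%. Among the peaks called on X, high signals were thus scarce, while the median signal was 78.03 against 73.16. Peaks of any signal were also sparser along X, at 9.44 optimal peaks per megabase. Chromosome 3, the lowest of chromosomes 1 to 19, had 19.98. The sex of the animals is not given.

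Every site had an overlapping peak in the list of each library, and every one was in the conservative list. The same held for all peaks at 1 to 2% and 2 to 10% of the optimal list. Over all optimal peaks of chromosomes 1 to 19, 99.9% had a peak in replicate 1, 97.6% in replicate 2 and 83.7% were in the conservative list. The library lists hold 300000 peaks each. In replicate 1 the ranks of the sites ran from 1 to 6182 with a median of 369, and in replicate 2 from 1 to 2947 with a median of 349. All 653 were in the first 3000 (1%) of replicate 2's list and 645 in that of replicate 1 (98.8%). Against a limit as strict as the one used here, the libraries overlapped less. Of the 653, 332 were in the first 655 of both lists (50.8%), 127 only in replicate 1, 169 only in replicate 2 and 25 in neither.

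Order within the sites was loosely shared. Over the 653, Spearman's rho between the libraries' ranks was 0.265, and over the 62218 optimal peaks found in both lists it was 0.908. Selection on pooled signal narrows the range over which the first value is computed, and peaks of 1 library are not independent of each other. Summits were placed more alike, 5 bp apart between libraries at the median compared with 13 bp over all peaks, though the groups at 1 to 2% and 2 to 10% of the list had 5 and 6 bp. Some sites ranked far apart in the libraries. The largest differences were at sites near Drd5, a dopamine receptor gene (rank 6182 in replicate 1 and 212 in replicate 2), Exoc7 (3965 and 141), Slc44a5 (3632 and 160), Ankrd9 (3514 and 135) and Tmco5b (3149 and 114). All 5 ranked higher in replicate 2. The last site inside the limit, near Rab12, went the other way, with ranks of 131 and 2947.

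**Figure D5:**
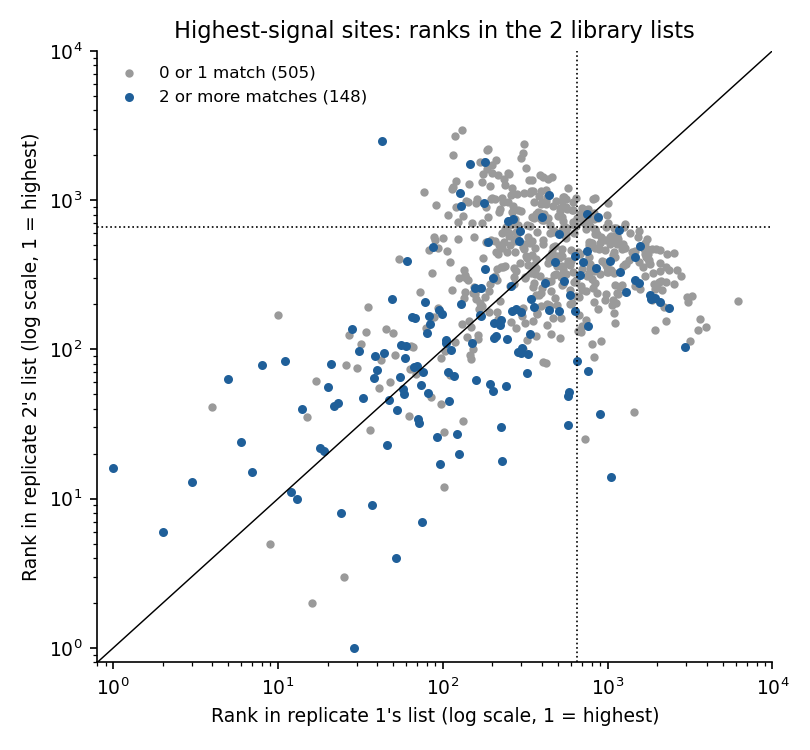
Rank of each of the 653 highest-signal sites in the list of replicate 1 (x) and replicate 2 (y), both on log axes with 1 the highest; blue points are the 148 sites with 2 or more motif matches, the solid line marks equal ranks and the dotted lines rank 655. Blue points gather towards the lower left, with 114 of 148 inside both dotted lines.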

How the data were processed

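The authors deposited narrowPeak lists on mm10 with a signal value per peak as their caller gave it, 1 list for each library and optimal and conservative lists thresholded for reproducibility (irreproducible discovery rate), per the notes deposited beside the lists. For the aligner, the caller, the scaling of the signal and the threshold, the sources used here give nothing. Signal was used only to rank peaks within a list.

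Summits (the deposited offset, converted to 1-based positions) were set against the GRCm38.p6 sequence and GENCODE M21, with 93145 TSSs of 21755 protein-coding genes. Classes were assigned in the order promoter (1 kb), coding exon, other exon, intron, intergenic. The 19-base motif matrix was learned from 9851 peak sequences outside the 653 sites with soft-masked bases left out, and checked on simulated data. A library peak was matched to a site by an overlap of at least 1 bp, taking the nearest summit. Computation used scipy 1.17.1, pandas 2.3.3 and numpy 2.4.6 under Python 3.11.15.

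The sites and gene lists were chosen with earlier results of these data known. No test was made, since 1 group exists and the sites were selected on signal from both libraries. Named were the 20 highest sites, the 12 highest promoter and 6 highest coding sites, those beside the limit, the 8 closest pairs, the 3 most isolated, the 5 largest rank differences, genes with 3 or more sites, up to 4 genes per list and sites with identical matches; other names are marked. The analysis of 2 or more matches was added after seeing the data. A few named items are not reported here.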

Additional observations from a re-analysis of the deposited data

How the results depend on the processing

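No paired analysis was possible because the 2 libraries form 1 group. Of 77 values recomputed under other settings, 58 stayed within the 95% interval of the main value. Leaving out a library gave, for sites with 2 or more matches, 20.2% to 22.4%, for sites within 1 kb of a TSS 14.7% to 16.9%, and for the nearest other peak 2355.5 bp (replicate 2's list alone) to 4669 bp; the share in both lists has no value without a library. With the highest 0.5% the gap between sites was 2479794 bp, the nearest other peak 4234 bp, the share in the first 1% of both lists 99.7% and that with 2 or more matches 36.8%. With the highest 2% the gap was 571910 bp and those shares were 94.0% and 13.5%. The conservative list gave a nearest other peak of 5409 bp. Promoters of 500 bp gave 13.8%, of 2500 bp 27.0%, and TSSs of all transcripts 21.3%. Genes within 50 kb numbered 2. A match was found in 44.7% at the limit of 1 in 100000, in 53.0% with the matrix learned with repeats and in 89.4% within 50 bp. Of the settings for 2 or more matches, these same ones, chosen after seeing the data, gave 2.60%, 4.90% and 12.9%, beside 0.0485%, 0.166% and 0.484% over all optimal peaks, so the level depends on the definition of a match while the share stayed above that of all peaks in each of them. Unknown read depth limits every rank.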
